A study of Mus musculus with 11 samples.

Results

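The 10 genes described here encode core parts of the actomyosin cortex: the cytoplasmic actins Actb and Actg1, the non-muscle myosin II heavy chains Myh9 and Myh10, the myosin light chains Myl6 and Myl12a, the actin regulators Cfl1 and Pfn1, and the protein kinases Rock1 and Rock2. They were taken by gene symbol from tables of 54146 gene rows, and each symbol matched 1 Ensembl row. The tables come from RNA-seq of 11 single mouse embryos of the C57BL/6 strain, collected at the 8-cell stage (E2.5) from intercrosses of Prdm10Δ/+ parents. The 5 mutants were Prdm10Δ/Δ, carrying no intact copy of the transcription factor gene Prdm10, and the 6 controls were Prdm10+/+ or Prdm10Δ/+, which the labels do not tell apart. Genotype was called from loss of the deleted exon in each embryo's cDNA. All embryos therefore had a mother with 1 intact allele. Embryos were collected and processed in 2 batches: batch 1 (controls 4 to 6 and mutants 4 and 5) had 16 cycles of cDNA amplification, and batch 2 (controls 1 to 3 and mutants 1 to 3) had 13.

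The cortex is a thin network of actin filaments under the plasma membrane. Non-muscle myosin II, built of heavy chains and 2 kinds of light chain, pulls on these filaments, and the kinases encoded by Rock1 and Rock2 switch it on by way of light chain phosphorylation. Cofilin severs old filaments and profilin feeds new monomers to growing ends. In the mouse embryo this network is known for the flattening of cells against each other at compaction, which starts at the 8-cell stage, and for the later sorting of inner from outer cells.

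Libraries held between 3534735 and 8265840 estimated reads on genes, and the 10 genes together took 0.218% to 0.383% of them. Prdm10, the targeted gene, was at 4.88 to 8.16 TPM (a share of all transcripts, scaled by transcript length, so that levels of different genes can be compared) in mutants and at 11.1 to 24.8 TPM in controls, so the groups did not overlap in TPM. In normalised counts they did: control 5 (124) lay below mutants 2, 3 and 4 (159 to 202). Its log2 fold change on counts was -0.66 ± 0.26 (SE) with an adjusted p of 0.215 (DESeq2). All 6 markers fixed for the 8-cell embryo were detected in both groups; their summed level was 408 to 781 TPM in batch 1 and 230 to 305 TPM in batch 2. Of these 6, Klf17 was called lower in mutants (0.881% of all genes tested were) and 0 were called higher (0.565% of all genes). Estimates were above 0 for 5, 4 of them with an unadjusted DESeq2 p under 0.05. With Klf17, 5 of the 6 had such a p, beside 11.9% of all genes tested. The median log2 fold change of the 6 was 0.44. The part of these differences in the results below was not tested. Markers of smooth muscle summed to at most 3.80 TPM, of cumulus cells to at most 3.08 TPM and of blood cells to at most 10.9 TPM (in control 1) in any embryo, and Acta2 was listed at 0 in all controls. Markers of the oviduct epithelium summed to 0.29 to 1.02 TPM in batch 1 and to 1.59 to 32.4 TPM in batch 2. Each library is a whole embryo, so fewer cells and less RNA per cell cannot be told apart.

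The 10 genes differed greatly in level per transcript length. Actb was the most abundant, with a mean of 877 TPM over the 11 embryos, followed by Pfn1 (525 TPM), Myl6 (490 TPM), Cfl1 (487 TPM), Actg1 (314 TPM) and Myl12a (133 TPM). Myh10 (27.6 TPM), Rock1 (17.0 TPM), Rock2 (8.37 TPM) and Myh9 (1.08 TPM) formed the lower end. Neighbours in this order were compared within each embryo by an exact two-sided sign-flip permutation test on log2(TPM + 1), adjusted over the 9 neighbour pairs. In 7 of the 9 pairs the upper gene was higher by this test. Pfn1, Myl6 and Cfl1 were not separated: Pfn1 was above Myl6 in 6 of 11 embryos (exact permutation p = 0.415, adjusted 0.467) and Myl6 above Cfl1 in 4 of 11 (exact permutation p = 0.827, adjusted 0.827). Actb stood above Pfn1 in 10 of 11 embryos, by 0.68 ± 0.61 (SD) on the log2 scale (exact permutation p = 0.00781, adjusted 0.0117). The weakest of the separated pairs was Myh10 above Rock1, with 10 of 11 embryos and an adjusted exact permutation p of 0.0439, and its log2 difference of 0.79 was smaller than its SD of 1.04 among embryos.

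**Figure D1:**
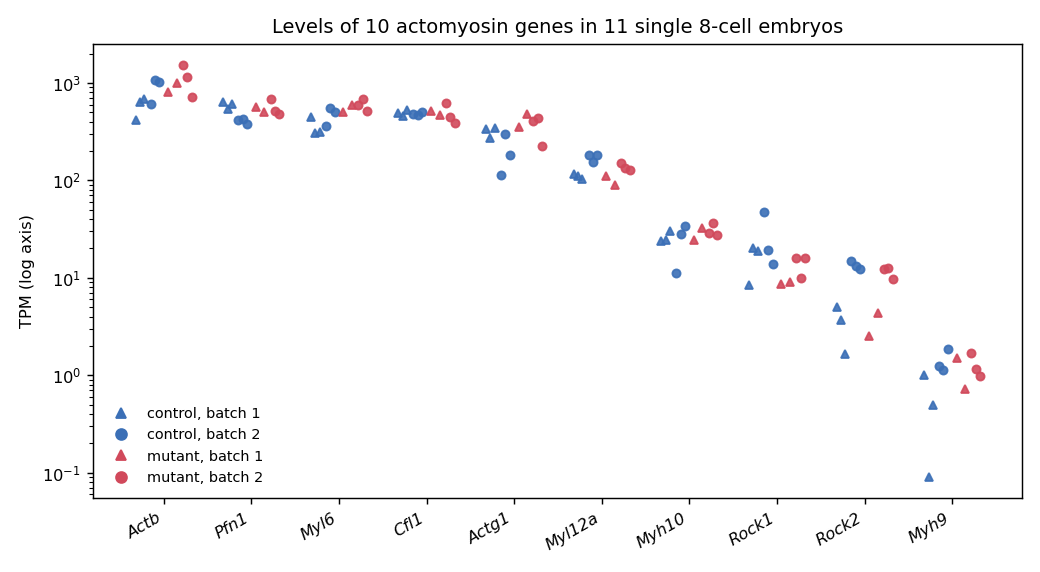
TPM of each of the 10 genes (log axis) in every embryo, ordered by mean level; blue, control; red, mutant; triangles, batch 1; circles, batch 2. Cfl1 forms the tightest column (390 to 623 TPM), Myl12a and Rock2 split by batch, and control 1 stands above all other embryos for Rock1 at 47.2 TPM.

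The genes differed widely in how steady they were from embryo to embryo. After batch and group were taken out, the residual SD of log2(TPM + 1) was 0.139 for Myl12a, smaller than in all but 1.27% of the 10448 genes tested, and 0.186 for Cfl1, smaller than in all but 4.27%. Pfn1 (0.235) and Myl6 (0.257) were also steadier than the median gene, whose residual SD was 0.457. Actb (0.428) and Actg1 (0.478) lay near that median although both are highly expressed and the median among well-covered genes, with a mean normalised count above 200, was 0.319. Rock1 had the widest spread of the 10 genes on this scale at 0.580, while on log2(normalised count + 1) Myh9 did, at 0.725 against 0.627 for Rock1. These values describe the embryos and carry no test.

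None of the 10 genes was called changed in mutants. With DESeq2 and batch as a term, a gene was called at an adjusted p under 0.05 with a mean normalised count above 10, and all 10 genes passed that count. The counts were 0 of 10 by DESeq2 and 0 of 10 by edgeR's quasi-likelihood test, against 151 of 10448 genes (1.45%) and 35 of 10489 genes (0.334%) over the whole table. Before adjustment, 3 of 10 had a DESeq2 p under 0.05 (Actg1, Myl6 and Rock1), as did 11.9% of all genes tested, and 3 of 10 did by edgeR. Of the 10 log2 fold changes 6 were above 0 and 4 below, with a median of 0.13 beside -0.0012 for all genes tested. No gene of the 10 had mutants and controls that did not overlap within both batches in the same direction, as 2.74% of all genes did.

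**Figure D2:**
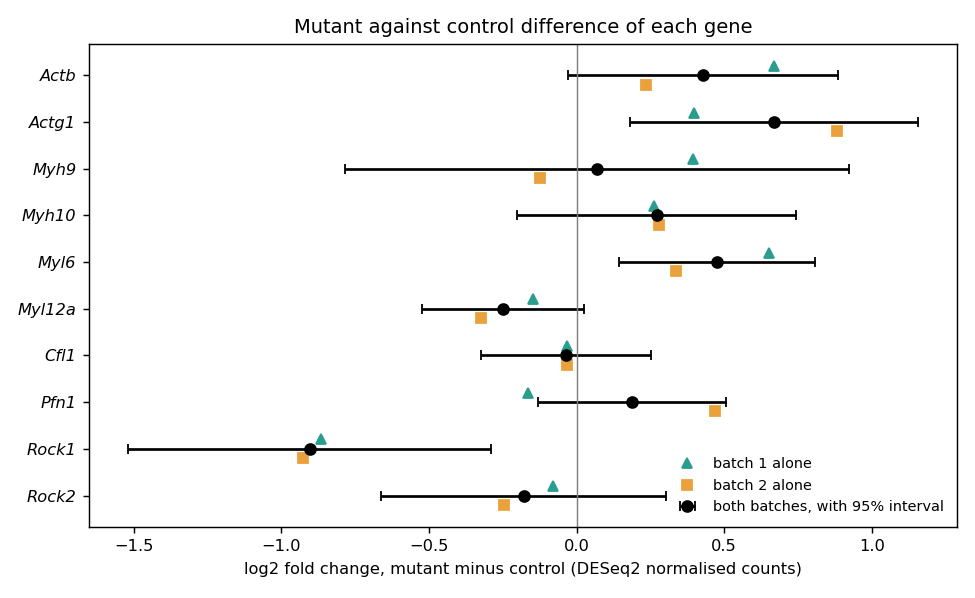
Log2 fold change of each gene, mutant minus control, from DESeq2; black circles with bars, both batches with 95% interval; triangles, batch 1 alone; squares, batch 2 alone. The intervals of Actg1, Myl6 and Rock1 leave out 0 before adjustment for multiple testing, and Pfn1 and Myh9 change sign between batches.

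The actins, the filament subunits themselves, were the pair with the largest upward estimates. Actb is at chr5:142903115-142906754 and Actg1 at chr11:120345690-120348542, both on the minus strand of GRCm38. In batch 2, Actb was at 613, 1065 and 1017 TPM in controls and at 1543, 1145 and 710 TPM in mutants. The batch 1 controls had 418, 641 and 688 TPM and the batch 1 mutants 804 and 1007 TPM. Within batch 1 both mutants exceeded every control, while in batch 2 mutant 3 lay among the controls. Over both batches the log2 fold change was 0.43 ± 0.23 (SE; 95% interval -0.03 to 0.88; DESeq2 adjusted p = 0.481).

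Actg1 was at 115, 296 and 184 TPM in the batch 2 controls and at 408, 439 and 225 TPM in the batch 2 mutants. The values in batch 1 were 334, 275 and 347 TPM for controls and 350 and 479 TPM for mutants. In TPM mutant 3 was again the one mutant inside the control range of its batch, while in normalised counts mutant 4 (2541) was also inside it (2064 to 2723), and control 1 was the lowest embryo of all. The log2 fold change was 0.67 ± 0.25 (SE; 95% interval 0.18 to 1.16; DESeq2 adjusted p = 0.183; edgeR adjusted p = 0.360). Without control 1 it was 0.50 with an adjusted p of 0.406, and without control 2 it was 0.83 with an adjusted p of 0.0487, the only setting in which DESeq2 called the gene.

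Actb made up 55.6% to 70.0% of the summed TPM of the 2 actins in batch 1 and 72.3% to 84.7% in batch 2. The ratio of Actb to Actg1 thus split by batch, and between mutants and controls no difference passed the threshold (difference in log2 ratio -0.20 ± 0.25 SE; exact permutation within batches, p = 0.435, adjusted over 7 ratios 0.644). With 1 embryo left out that difference ran from -0.34 (without control 4) to -0.082 (without mutant 2). The levels of the 2 genes were also compared across embryos. With batch means subtracted, Pearson's r of log2(TPM + 1) was 0.73 (exact permutation within batches, n = 11, p = 0.0123, adjusted over 5 pairs 0.0615) and Spearman's rank correlation was 0.80 (exact permutation p = 0.00498, adjusted 0.0249). Without the 2 embryos farthest from the median of Actb, r was 0.74 (exact permutation p = 0.0403, adjusted 0.201), and in batch 2 alone it was 0.83 (n = 6, exact permutation p = 0.0403, adjusted 0.201), so neither passed after adjustment. Batch 1 alone, with 5 embryos, was not tested, since a correlation was computed only over 6 or more. The embryos include both groups, so a group difference shared by the actins adds to r. On normalised counts r was 0.74 with an adjusted exact permutation p of 0.0228. The RSEM posterior SD of the counts of the 10 genes other than Myh9 was at most 1.08% of a gene's reads, and the correlation without reads shared between the actins was not tested. The muscle and other actins (Acta1, Acta2, Actc1, Actg2, Actbl2) did not reach a mean normalised count of 10; Acta2 was the highest of them and was at 0 TPM in all embryos but mutants 2 and 3, at 1.03 and 1.25 TPM.

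The other 4 pairs of genes compared across embryos gave no correlation past the threshold. Pearson's r was -0.54 for Myl6 with Myl12a (exact permutation p = 0.0864, adjusted 0.216), 0.49 for Cfl1 with Pfn1 (exact permutation p = 0.243), 0.05 for Myh9 with Myh10 (exact permutation p = 0.863) and -0.08 for Rock1 with Rock2 (exact permutation p = 0.811), each over 11 embryos. Spearman's rank correlation was -0.44 (exact permutation p = 0.191), 0.07 (exact permutation p = 0.853), 0.06 (exact permutation p = 0.862) and -0.07 (exact permutation p = 0.846) in the same order. The value for Cfl1 with Pfn1 rested on single embryos: without the 2 farthest from the median, r was -0.12. Without such embryos r was -0.37 for Myl6 with Myl12a, 0.06 for Myh9 with Myh10 and -0.62 for Rock1 with Rock2 (exact permutation p = 0.164 for the last).

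Of the myosin II heavy chains, the motor subunits, Myh10 (non-muscle myosin IIB; chr11:68691559-68816632, plus strand) was the main form. It was at 11.3, 28.2 and 34.2 TPM in batch 2 controls, 29.0, 36.7 and 27.8 TPM in batch 2 mutants, 24.0, 24.5 and 30.4 TPM in batch 1 controls, and 24.6 and 32.8 TPM in batch 1 mutants. Apart from the low control 1, mutants and controls overlapped in both batches (log2 fold change 0.27 ± 0.24 SE, DESeq2 adjusted p = 0.737). With 1 embryo left out the estimate ran from 0.12 (without control 1) to 0.40 (without control 3). Myh9 (non-muscle myosin IIA; chr15:77760587-77842175, minus strand) was at 0.09 to 1.88 TPM in controls and 0.72 to 1.69 TPM in mutants. These levels rest on 2.07 to 75 reads per embryo, and RSEM gave Myh9 an effective length between 2303 and 7359 bases in different embryos, which scales its TPM. Its fold change was not determined at these counts (0.07 ± 0.44 SE; 95% interval -0.78 to 0.92). In every embryo Myh10 exceeded Myh9: on TPM + 1 the ratio of Myh9 to Myh10 was 0.0427 to 0.183, with no difference between groups past the threshold (-0.14 ± 0.35 SE on the log2 scale, exact permutation p = 0.73). Myh11, the smooth muscle heavy chain, and Myh14 reached at most 0.70 and 2.20 TPM.

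The estimates of the light chains had opposite signs. Myl6, the essential light chain that stiffens the myosin neck (chr10:128490860-128494145, minus strand), was at 365, 550 and 503 TPM in batch 2 controls and 599, 686 and 520 TPM in batch 2 mutants. Controls of batch 1 had 443, 306 and 316 TPM and mutants of batch 1 had 503 and 595 TPM. In TPM, 1 of the 5 mutants fell inside its batch's control range, mutant 3. The log2 fold change was 0.48 ± 0.17 (SE; 95% interval 0.14 to 0.81; DESeq2 adjusted p = 0.148; edgeR adjusted p = 0.299), and it stayed between 0.39 and 0.54 when each embryo was left out.

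Myl12a, a regulatory light chain and so a carrier of the phosphorylation that these kinases promote, had a downward estimate. It was at 181, 153 and 183 TPM in batch 2 controls and 151, 133 and 128 TPM in batch 2 mutants, where the groups did not overlap in TPM. In batch 1 it was at 116, 111 and 103 TPM in controls and 111 and 89.7 TPM in mutants, where they did. In normalised counts this was the other way round: mutant 1 (730) lay above control 2 (702) in batch 2, while in batch 1 the mutants (449 and 393) were below the lowest control (452). Mutants differed by -0.25 ± 0.14 on the log2 scale (SE; 95% interval -0.52 to 0.02; DESeq2 adjusted p = 0.503). Myl12b, the neighbouring paralog that encodes a nearly identical light chain, was at 40.4, 56.6 and 55.2 TPM in batch 2 controls and 30.5, 37.5 and 32.7 TPM in batch 2 mutants. In batch 1 it was at 62.8, 71.5 and 73.8 TPM in controls and 46.8 and 51.1 TPM in mutants. Every mutant was below every control of its batch, yet the gene missed the threshold (-0.56 ± 0.18 SE, DESeq2 adjusted p = 0.0925; edgeR adjusted p = 0.312). With the reads of both regulatory light chains summed, the log2 fold change was -0.35 ± 0.12 (SE, DESeq2 adjusted p = 0.152). The ratio of Myl12a to Myl12b did not differ past the threshold (0.30 ± 0.16 SE on the log2 scale, exact permutation p = 0.105, adjusted 0.367). The alternative essential light chain Myl6b was at 0 to 3.36 TPM, so Myl6 was at least 107 times as high in every embryo on TPM + 1.

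Myl12a was also the only one of the 10 genes in the study's list of genes bound by PRDM10 in mouse embryonic stem cells, a list made by ChIP-seq in other cells and thus independent of these embryos. Of the 85 further actomyosin genes, 7 were in it: Myl12b, Arpc4, Wasl, Wasf1, Wasf2, Diaph1 and Vasp. The study's gel-shift probe for PRDM10 shows which letters that protein was tested on. The intact and the mutated probe differ in the letters given in capitals:

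intact probe: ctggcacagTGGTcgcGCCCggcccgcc
mutated probe: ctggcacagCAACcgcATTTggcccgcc

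The intact letters, with any base between them, give the core TGGTNNNGCCC, which was searched on both strands of 32851 RefSeq promoter windows on GRCm38.p6, each 250 bases before to 50 after an annotated start. It was in 1.45% of all windows. Of the 10 genes 8 had a window, and 0 of their 9 windows held the core. With 1 mismatch allowed it was in the window of Myl12a and in 24.6% of all windows. The study's list takes peaks along and beside the whole gene body, so a listed peak can lie outside these windows. The window of Myl12a, the one listed as bound, lies at chr17:71002484-71002783 on the minus strand and is shown because its gene is the only listed one of the 10; it is all in lower case since it holds no exact core:

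Myl12a: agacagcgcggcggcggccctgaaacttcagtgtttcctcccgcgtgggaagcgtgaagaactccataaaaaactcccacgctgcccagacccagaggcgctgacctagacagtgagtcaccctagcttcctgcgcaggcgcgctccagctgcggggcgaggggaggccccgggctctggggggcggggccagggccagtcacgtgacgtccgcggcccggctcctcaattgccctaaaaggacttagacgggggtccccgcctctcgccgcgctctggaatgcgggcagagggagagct

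Among the further actomyosin genes 77 had a window, and in 6 of these the core was found. Those of 4 genes that bear on the comparisons are shown with 20 bases on each side and the core in capitals, read along the gene's strand: 3 genes in the bound list, and Cfl2, which is not in it and is shown because DESeq2 called it. The other two genes with the core, Cap1 (log2 fold change 0.17 ± 0.34 SE, DESeq2 adjusted p = 0.927) among them, are not in the list and were not called. In Wasf1 and Cfl2 the core is on the opposite strand and appears as its reverse complement.

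Arpc4, chr6:113378092-113378102: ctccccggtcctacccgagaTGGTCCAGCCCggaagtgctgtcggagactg
Wasl, chr6:24664989-24664999: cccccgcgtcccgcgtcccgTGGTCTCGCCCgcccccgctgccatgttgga
Wasf1, chr10:40883552-40883562: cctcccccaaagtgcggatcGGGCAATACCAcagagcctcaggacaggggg
Cfl2, chr12:54862930-54862940: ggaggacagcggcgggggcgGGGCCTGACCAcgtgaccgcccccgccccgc

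The CArG box, the site known for serum response factor at many actin and muscle gene promoters, was searched in the same windows and was in 1.63% of all of them. Of the 10 genes it was in a window of Actg1 and in 1 of the 2 windows of Myl6, which are shown because these genes had the largest upward estimates of the 10; Actb and Rock1 had no window. The box is in capitals, and neither window also held the PRDM10 probe core. The box of Myl6 is in the window of an annotated start within the gene (chr10:128492960-128493259). The window at the start of the Myl6 gene (chr10:128493837-128494136) held none. Of the 77 further genes with a window 7 had the box. Vil1, Actc1, Myl9 and Acta1 among these were not tested. The others were tested and not called (1.45% of all genes tested were called), and of these Arpc4 had a downward estimate (-0.86).

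Actg1, chr11:120348576-120348585: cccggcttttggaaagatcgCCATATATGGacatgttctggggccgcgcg
Myl6, chr10:128493050-128493059: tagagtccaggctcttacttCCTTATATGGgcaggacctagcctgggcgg

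All 8 genes of both sets in the bound list were tested, and 0 of 8 were called (1.45% of all genes were). Before adjustment 3 of 8 had a DESeq2 p under 0.05, as did 11.9% of all genes: Myl12b and Arpc4 with lower estimates and Wasl with a higher one. Arpc4, a subunit of the Arp2/3 complex that starts branched filaments, was at 41.4, 87.0 and 129 TPM in batch 2 controls, 64.3, 40.1 and 41.7 TPM in batch 2 mutants, 134, 115 and 97.4 TPM in batch 1 controls, and 67.6 and 84.5 TPM in batch 1 mutants. Control 1 was as low as the mutants. With all embryos the log2 fold change was -0.86 ± 0.27 (SE, DESeq2 adjusted p = 0.0839). Without control 1 it was -1.02 with a DESeq2 adjusted p of 0.000791. Control 1 also had the highest sum of blood cell markers, though Hbb-bs and Hbb-bt were at 0. Its Pou5f1 was the lowest, at 34.2 TPM, and its Klf17 the highest of batch 2, at 195 TPM. The part of these markers in the result was not tested. Wasl, which encodes N-WASP, an activator of that complex, was at 16.6, 23.4 and 14.4 TPM in batch 2 controls, 27.1, 28.5 and 26.8 TPM in batch 2 mutants, 19.8, 13.0 and 11.2 TPM in batch 1 controls, and 22.1 and 22.5 TPM in batch 1 mutants. Every mutant was above every control of its batch (0.67 ± 0.20 SE, DESeq2 adjusted p = 0.0539; edgeR adjusted p = 0.241); the gene was called with effective lengths as an offset (adjusted p = 0.0494) and without control 4 (0.0213). The log2 fold changes of Wasf1, Wasf2, Diaph1 and Vasp lay between -0.23 and 0.26, with adjusted p from 0.639 to 0.988.

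Cofilin and profilin set how fast filaments turn over. Cfl1, the main cofilin (chr19:5490455-5495201, plus strand), was among the steadiest of the 10 genes. It was at 483, 464 and 503 TPM in batch 2 controls, 623, 445 and 390 TPM in batch 2 mutants, 492, 458 and 527 TPM in batch 1 controls, and 511 and 464 TPM in batch 1 mutants. Its log2 fold change of -0.03 ± 0.15 (SE) had a 95% interval of -0.32 to 0.25.

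Cfl2, a second cofilin best known from muscle, was at 230, 191 and 149 TPM in batch 2 controls and 110, 106 and 94.4 TPM in batch 2 mutants. In batch 1 it was at 196, 180 and 218 TPM in controls and 166 and 132 TPM in mutants. Every mutant was below every control of its batch, and DESeq2 called the gene lower (-0.66 ± 0.18 SE, a fold of 0.634, adjusted p = 0.0268), while edgeR did not (adjusted p = 0.188). The call was lost without control 1 or 6 or without mutant 1, 2, 3 or 5 (adjusted p from 0.0685 to 0.172), with log2 fold changes of -0.76 to -0.54 over all embryos left out in turn. The ratio of Cfl1 to Cfl2 was therefore higher in mutants. Its log2 value averaged 1.34 ± 0.22 (SD) over the 6 controls and 2.00 ± 0.33 over the 5 mutants, with no overlap within either batch. The difference was 0.64 ± 0.15 (SE), with an exact two-sided permutation p within batches of 0.005, the smallest that the 200 arrangements allow, and 0.035 after adjustment over the 7 ratios. This was the only ratio of the 7 past the threshold. It was no longer past it with labels permuted over all embryos and batch as a term (adjusted exact permutation p = 0.0911), nor with any 1 embryo left out (adjusted 0.07 to 0.117), where the arrangements left cannot take a single ratio past the threshold. The ratio contains the same Cfl2 values as the DESeq2 call and does not repeat it independently.

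**Figure D3:**
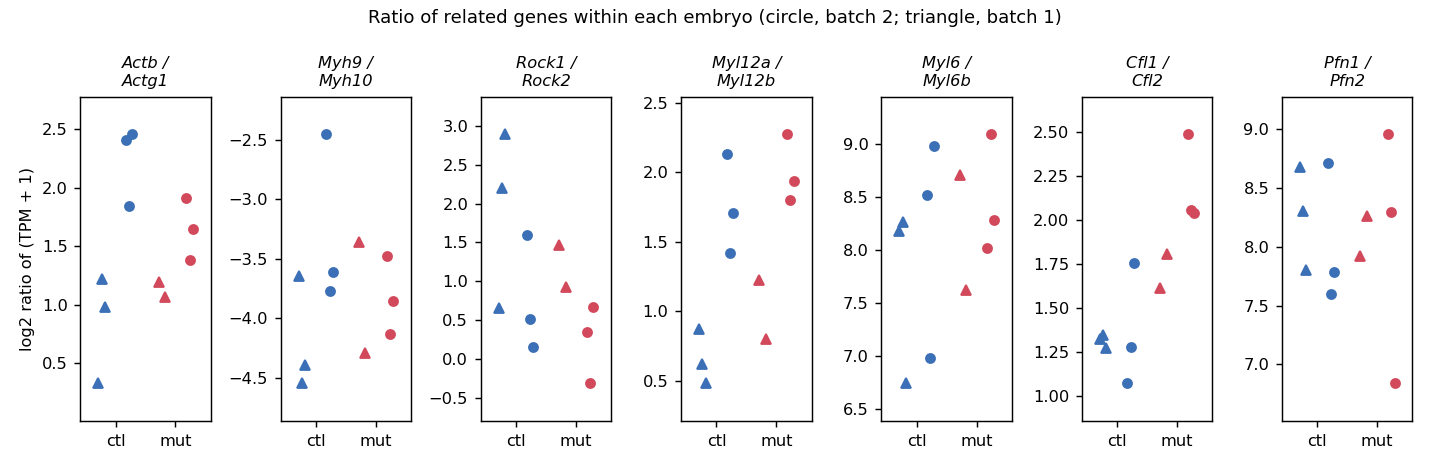
Log2 ratio of (TPM + 1) of 7 pairs of related genes in each embryo; blue, control (ctl); red, mutant (mut); triangles, batch 1; circles, batch 2; each panel has its own axis. In the Cfl1 to Cfl2 panel every mutant is above every control of its batch, and in the Actb to Actg1 panel the batches separate.

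Pfn1, the main profilin (chr11:70651850-70654644, minus strand), differed between batches in its direction. It was at 418, 430 and 376 TPM in batch 2 controls and 681, 518 and 483 TPM in batch 2 mutants, all 3 mutants being higher. In batch 1 it was at 643, 544 and 610 TPM in controls and 567 and 505 TPM in mutants, where the groups overlapped. The log2 fold change was 0.47 in batch 2 alone and -0.16 in batch 1 alone. The interaction of batch and group was 0.64 on the log2 scale (DESeq2 adjusted p = 1.00). That interaction was called for 0 of 10 genes (0 by edgeR as well; 1 of 10 had an unadjusted DESeq2 p under 0.05, as did 450 of 10472 over all genes), against 0.0382% of all genes called. Over both batches Pfn1 had a log2 fold change of 0.19 ± 0.16 (SE, DESeq2 adjusted p = 0.726), from 0.084 without mutant 1 to 0.28 without mutant 5. Pfn2, the profilin of neurons, was at no more than 3.23 TPM, and the ratio of Pfn1 to Pfn2 did not differ past the threshold (exact permutation p = 0.86).

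The kinases Rock1 and Rock2, which activate myosin, had the largest downward estimate and the largest batch difference of the set. Rock1 was at 47.2, 19.1 and 13.8 TPM in batch 2 controls, 16.0, 9.90 and 15.9 TPM in batch 2 mutants, 8.46, 20.5 and 18.8 TPM in batch 1 controls, and 8.68 and 9.12 TPM in batch 1 mutants. Control 1 stood far above every other embryo, and control 4 was the lowest of all. Control 1 had the highest sum of blood cell markers, though Hbb-bs and Hbb-bt were at 0 in it. The part of these markers in the Rock1 result was not tested. The log2 fold change of Rock1 was -0.90 ± 0.31 (SE, 95% interval -1.52 to -0.29, DESeq2 adjusted p = 0.134, edgeR adjusted p = 0.339). It was -0.55 with an adjusted p of 0.538 without control 1, and -1.04 with an adjusted p of 0.0353 without control 4.

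Rock2 (chr12:16894895-16987823, plus strand) was at 14.9, 13.1 and 12.3 TPM in batch 2 controls, 12.4, 12.6 and 9.65 TPM in batch 2 mutants, 5.01, 3.67 and 1.65 TPM in batch 1 controls, and 2.51 and 4.31 TPM in batch 1 mutants. The batches did not overlap and the groups did. Mutants differed from controls by -0.18 ± 0.25 (SE) on the log2 scale (DESeq2 adjusted p = 0.868), from -0.06 without control 4 to -0.36 without mutant 5, and batch 2 from batch 1 by 2.21 ± 0.25 (SE). The ratio of Rock1 to Rock2 did not differ between groups past the threshold (-0.61 ± 0.45 SE, exact permutation p = 0.215, adjusted 0.502), and with 1 embryo left out the difference ran from -0.86 (without control 4) to -0.41 (without control 6).

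More of the 10 genes were called between batches than between groups. Between batches 5 of 10 genes differed at an adjusted p under 0.05 (Myh9, Myl6, Myl12a, Rock1 and Rock2), all higher in batch 2, against 27.9% of all genes tested. The log2 differences were 1.67 for Myh9, 0.49 for Myl6, 0.76 for Myl12a and 0.91 for Rock1. The batches differ in amplification cycles, collection and the summed marker levels given above, whose parts in these differences were not tested.

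Beyond the 10 genes, 85 genes of the same machinery were followed in 8 role groups, of which 66 could be tested. DESeq2 called 2 higher (0.565% of all genes were called higher) and 1 lower (0.881% of all genes were called lower). These were Actn4 and Tpm1, higher, and Cfl2, lower; edgeR called 0 of them or of the other tested genes (0.334% of all genes), with 11 at an unadjusted p under 0.05 (995 of 10489 over all genes). The median log2 fold change was 0.05, with 38 estimates above 0 and 28 below. In 5 of 66 genes mutants and controls did not overlap within either batch, with the same direction in both: Cfl2, Actn4, Tpm1, Myl12b and Wasl (2.74% of all genes).

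Actn4, an actin crosslinker, was at 21.4, 43.5 and 35.8 TPM in batch 2 controls, 44.7, 80.5 and 61.1 TPM in batch 2 mutants, 72.1, 75.1 and 57.1 TPM in batch 1 controls, and 98.8 and 124 TPM in batch 1 mutants. Its log2 fold change was 0.80 ± 0.22 (SE, DESeq2 adjusted p = 0.0285; edgeR adjusted p = 0.184), and the call was lost without control 1, 4 or 6 or mutant 2, 3 or 5 (adjusted p from 0.0576 to 0.212). Tpm1, a tropomyosin that lines actin filaments, was at 21.8, 38.3 and 28.6 TPM in batch 2 controls, 47.5, 34.4 and 49.9 TPM in batch 2 mutants, 31.5, 39.8 and 30.9 TPM in batch 1 controls, and 54.0 TPM in both batch 1 mutants. In TPM, mutant 2 lay below control 2, while in normalised counts the 5 mutants were above all 6 controls (0.69 ± 0.18 SE, DESeq2 adjusted p = 0.0222; edgeR adjusted p = 0.198). Tpm1 was no longer called with effective lengths as an offset (adjusted p = 0.0644), nor without control 1, 4 or 6 or mutant 1, 3, 4 or 5 (0.0563 to 0.182).

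**Figure D4:**
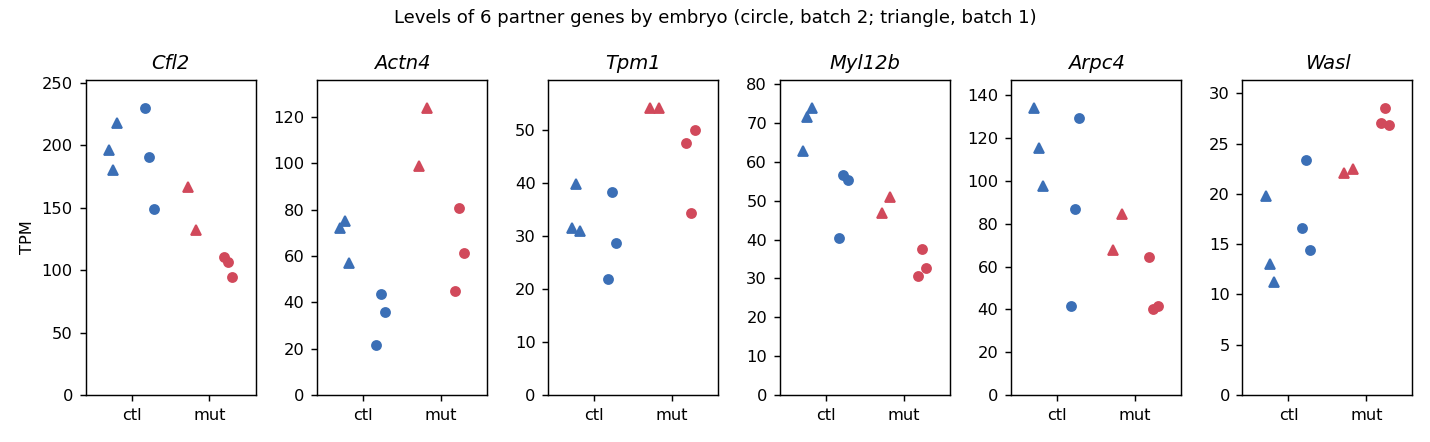
TPM of Cfl2, Actn4, Tpm1, Myl12b, Arpc4 and Wasl in each embryo; blue, control (ctl); red, mutant (mut); triangles, batch 1; circles, batch 2; axes start at 0. Within each batch the mutants lie below the controls for Cfl2 and Myl12b and above them for Actn4 and Wasl.

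The role groups are described by their counts, beside 0.565% of all genes called higher, 0.881% called lower, 11.9% with an unadjusted DESeq2 p under 0.05 and a median log2 fold change of -0.0012. Of the genes by role, 13 of 13 genes of the Arp2/3 complex and its activators were tested and 0 called, 3 with an unadjusted p under 0.05; Arpc2, with the highest mean over the 11 embryos, had a mean of 154 ± 13.3 TPM (SD) over the 6 controls and of 149 ± 22.3 TPM over the 5 mutants. Arpc3 was above it in all 5 batch 1 embryos (154 to 197 TPM against 136 to 179 TPM) and differed between batches by -2.01 on the log2 scale. Among the crosslinkers and membrane linkers 15 of 15 were tested, 2 called higher and 0 lower, 3 with an unadjusted p under 0.05, and the median log2 fold change was 0.26. Tpm3, the most abundant of these, was at 314 ± 51.1 TPM in the controls and 322 ± 75.7 TPM in the mutants. In the group for turnover, capping and sequestering 13 of 19 were tested, Cfl2 was the only one called, and 5 had an unadjusted p under 0.05, 3 with higher and 2 with lower estimates. The light chain kinases and phosphatase (8 of 9 tested) and the formins and elongation factors (8 of 9 tested, Enah the most abundant at a mean of 32.9 TPM) had 0 calls and 0 unadjusted DESeq2 p under 0.05. Enah moved with the batch, by 1.57 on the log2 scale from batch 1 to batch 2. So did the kinase gene Dapk3, by -1.91, from 26.6 to 80.9 TPM in batch 1 to 5.19 to 16.8 TPM in batch 2, where it was below Ppp1cb (15.1 to 41.4 TPM) in all 6 embryos.

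**Figure D5:**
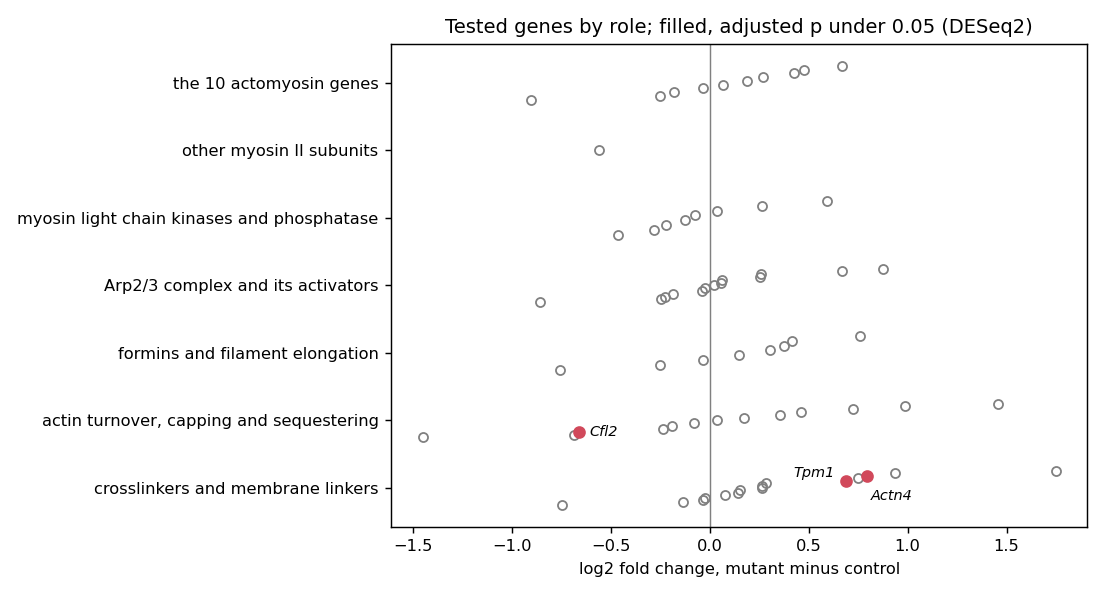
Log2 fold change, mutant minus control, of the 10 genes and of tested further genes in 6 roles (1 point a gene; height within a row only spreads the points). Filled points mark the 3 genes called by DESeq2: Cfl2 at -0.66, Tpm1 at 0.69 and Actn4 at 0.80.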

How the data were processed

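RNA-seq libraries were made from single embryos by a Smart-seq2 protocol (oligo-dT priming, tagmentation, single-end reads), which does not mark strand. The authors aligned reads with STAR 2.6.0c to GRCm38.p6 and quantified genes with RSEM. The deposited tables hold expected counts, their posterior mean and SD, effective lengths and TPM per gene; the authors' own comparison table of fold changes and p-values was not used. Here expected counts were rounded and fitted with DESeq2 1.42.0 (batch and group, unshrunken fold changes, Benjamini-Hochberg over all genes); edgeR 4.0.16 and limma 3.58.1 (log2(TPM + 1)) were alternatives. Ratios, order and correlations used exact permutation tests, two-sided. Replicates are numbered in accession order, each a separate embryo. No 2 libraries agreed within sampling noise (chi-square per degree of freedom at least 16.9). The group tests of DESeq2, edgeR and limma, the sign-flip test, the ratio permutation within batches and the Pearson permutation were run on simulated data. The Spearman, interaction and batch tests and the permutation over all embryos were not. Further genes named in the text are mainly those called by either tool, those in the bound list and the paralogs in a ratio. The most abundant gene of each role is also named, with some others, such as Cap1, Arpc3, Ppp1cb, Myh11, Myh14 and further actins. The rest are given by count. The 10 genes, the gene lists, marker lists and tests were chosen with earlier results of these data known. Coordinates of genes are from GENCODE on GRCm38, promoters from RefSeq. One role group of the further genes is not reported here.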

Additional observations from a re-analysis of the deposited data

Results flagged for a closer look

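One value stood apart from its group: Rock1 in control 1, at 47.24 TPM, was separated from the next control by 0.691 of the range of the 6 controls, above the limit for a lone value among 6. In all, 46 groups of values were examined in this way (16 genes and 7 ratios in controls and in mutants), and chance gives about 1 in 20, or 2.3. Control 1 also had the lowest Actg1 (115 TPM) and Myh10 (11.3 TPM) of all embryos. Its levels of the 8-cell markers Pou5f1 (34.2 TPM), Tfap2c, Cdh1 and Utf1 were the lowest. Its level of the 8-cell marker Klf17 (195 TPM) was the highest of batch 2. Its sum of blood cell markers was the highest (10.9 TPM, of which Hba-a1 8.03 and Ptprc 2.90 TPM), with Hbb-bs and Hbb-bt at 0. Hba-a1 rested on 20.2 reads with a posterior SD of 23.2% of them. After mutant 3, control 1 had the highest level of the oviduct marker Ovgp1 (24.2 TPM). The part of these markers in its Rock1, Actg1 and Myh10 values was not tested. No interaction of batch and group was called for any of the 10 genes.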

How the results depend on the processing

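The count of 0 of the 10 genes called in mutants held under edgeR, limma, other scaling, filtering, batch and length settings and with paralogs summed; without 1 embryo it was 0 to 1, Actg1 being called without control 2 and Rock1 without control 4. Of the further genes, 3 were called, but 0 under edgeR, limma, no batch term, batch 1 alone and batch 2 alone, and 0 to 4 without 1 embryo. Among all genes 151 were called, 35 by edgeR, 22 by limma, 51 with no batch term, 78 in batch 1 alone, 48 in batch 2 alone and 90 to 265 without 1 embryo. Of the values of single genes, ratios, neighbours and pairs under alternatives, 30 of 542 changed sign. The log2 fold change turned to -0.13 for Myh9 and to 0.17 for Diaph1 in batch 2 alone, to -0.16 for Pfn1, 0.19 for Wasf1 and -0.34 for Vasp in batch 1 alone, to 0.14 for Diaph1 with no batch term, and to 0.0051 for Cfl1 with the length offset. Without 1 embryo it ran from -0.10 to 0.19 for Myh9, -0.13 to 0.034 for Cfl1, -0.50 to 0.026 for Wasf1, -0.21 to 0.14 for Diaph1 and -0.28 to 0.39 for Vasp. The ratio of Myh9 to Myh10 turned to 0.13 and of Myl6 to Myl6b to -0.46 with a pseudocount of 0.1, and the latter to -0.14 on expected counts; without 1 embryo the first ran from -0.40 to 0.12 and that of Pfn1 to Pfn2 from -0.32 to 0.21. Of the 7 ratios 1 passed; 0 passed without 1 embryo (0 to 0), where the 80 to 120 arrangements left cannot take a single ratio past the threshold, and 0 passed when labels were permuted over all embryos with batch as a term, an alternative chosen after the data were seen (Cfl1 to Cfl2, adjusted exact permutation p = 0.0911). In batch 2 alone Pfn1 was below Myl6 (-0.15) and Myl6 above Cfl1 (0.14). By Pearson's r, 0 of the 5 correlations passed on TPM and 1 on normalised counts (Actb with Actg1, whose Spearman correlation passed on both), and Cfl1 with Pfn1 turned to -0.12 without the 2 farthest embryos. The causes were not tested. No paired analysis was possible because the labels give no replicate numbers shared between groups. Myh9 rests on 2.07 to 75 reads per embryo, and genes at or below a mean normalised count of 10 were not tested.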
